A study of Mus musculus with 11 samples.

Results

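PU.1 occupancy was examined at the promoters of 45 mouse genes that encode the machinery of DNA replication, out of 22,359 protein-coding genes with an annotated transcription start site (TSS). The genes were listed by name, and were divided by function into 15 genes of origin licensing, 7 of helicase activation, 8 that encode polymerase and primase subunits, 11 that encode the sliding clamp, its loader, the single-strand binding protein and the enzymes that finish the lagging strand, and 4 of nucleotide supply. All 45 were found in the annotation of the mm9 genome (NCBIM37). Reads were counted in 500 bp centred on the TSS of each gene.

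PU.1, a transcription factor of the ETS family, is required in myeloid and B cells and is also found in immature erythroid cells, and its high expression is known to block the differentiation of erythroleukemia cells. ETS proteins bind DNA through a purine-rich GGAA core. Replication genes are classical targets of E2F factors, which raise their transcription as cells leave G1, and the proteins they encode act in order: licensing factors load the MCM helicase onto origins in G1, activation factors switch it on in S phase, and polymerases, clamp and ligase then copy the DNA from deoxynucleotides made by ribonucleotide reductase and thymidylate synthase.

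ChIP-Seq, which sequences the DNA recovered from fixed chromatin by an antibody, was performed in 2 cell types. MEL cells are a mouse erythroleukemia line, here a clone of DS19 that stably expresses a GATA-1 fusion to the estrogen receptor ligand-binding domain (GATA-1/ER) and was grown in DMEM with serum and puromycin. ES-EP are non-leukemic erythroid progenitors that were obtained from mouse embryonic stem cells and grown in StemPro34 medium with Epogen, hIGF-1, dexamethasone and murine SCF. The growth protocol names no ligand for the fusion protein, and the MEL libraries come from 1 clone. In each cell type 2 chromatin preparations, A and B, were precipitated with the anti-PU.1 antibody T-21, and each preparation was sequenced as 2 libraries that were summed here, so n = 2 preparations per cell type. Input DNA was sequenced as 1 library in MEL cells and as 2 in ES-EP. DNA reads carry no expression level, so the identity of the cells could not be checked with marker genes.

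Preparations A and B held 5,697,937 and 6,987,141 placed reads in MEL cells, and their input 4,278,560. In ES-EP they held 6,284,725 and 7,095,855, and the input 7,488,885. Levels are given as reads, or as RPM, the reads scaled to a library size of 1,000,000. The ratio of ChIP to input is the ratio of depth-scaled reads with its 95% Clopper-Pearson interval, which covers counting error only. A promoter was called occupied when a two-sided exact binomial test of the summed ChIP reads against input had an adjusted p below 0.05 (Benjamini-Hochberg over all 22,359 TSSs) and both preparations lay above input. This test compares the reads of these libraries and does not use the spread between preparations.

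PU.1 ChIP exceeded input at 10 of the 45 replication promoters in MEL cells, where 10.5% of all TSSs were called, and at 10 of 45 in ES-EP, where 9.1% were called. The 8 genes that passed in both cell types, where 5.97% of all TSSs and 11.4% of the other CpG-rich ones did, were *Orc3* and *Orc4* of the origin recognition complex, *Mcm8*, *Gins4*, *Prim2*, *Pola1*, *Rfc1* and *Rfc2*. *Cdt1* and *Pcna* passed in MEL cells and *Orc6* and *Rrm2* in ES-EP, and 33 replication genes passed in neither. Replication promoters are mostly CpG-rich (39 of 45, against 48.7% of all promoters), and CpG-rich promoters were called far more often than others. Among the other 10,844 CpG-rich promoters 20.3% were called in MEL cells and 16.8% in ES-EP, beside 10 of the 39 CpG-rich replication promoters in each. Among the 45, all called promoters were CpG-rich. None of the 6 outside this class (*Mcm7*, *Cdc45*, *Mcm10*, *Fen1*, *Tyms*, *Tk1*) was above input of the same 500 bp in either cell type by the binomial test, adjusted or at an unadjusted p below 0.05, or by limma. Against input averaged over 5 kb, 1 of the 6, *Tyms*, passed in both cell types (exact binomial test, adjusted p = 0.000581 and 0.0101). Of the other TSSs outside the class 10.3% (MEL) and 11.0% (ES-EP) passed against this input. *Mcm7*, *Cdc45*, *Mcm10* and *Fen1* have 7, 3, 2 and 5 annotated TSSs. The TSSs of *Ap4m1*, *Ufd1l* and *Afmid* lie 417, 140 and 118 bp downstream of those of *Mcm7*, *Cdc45* and *Tk1*. Only the most upstream TSS was tried as an alternative, and the part of TSS choice in the class was not tested. No replication promoter was called below input in either cell type by the binomial test or by limma. At an unadjusted p below 0.05 the binomial test put 0 below input in MEL cells and 3 (*Pold2*, *Lig1* and *Fen1*) in ES-EP, beside 1.32 and 1.4% of all TSSs.

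**Figure D1:**
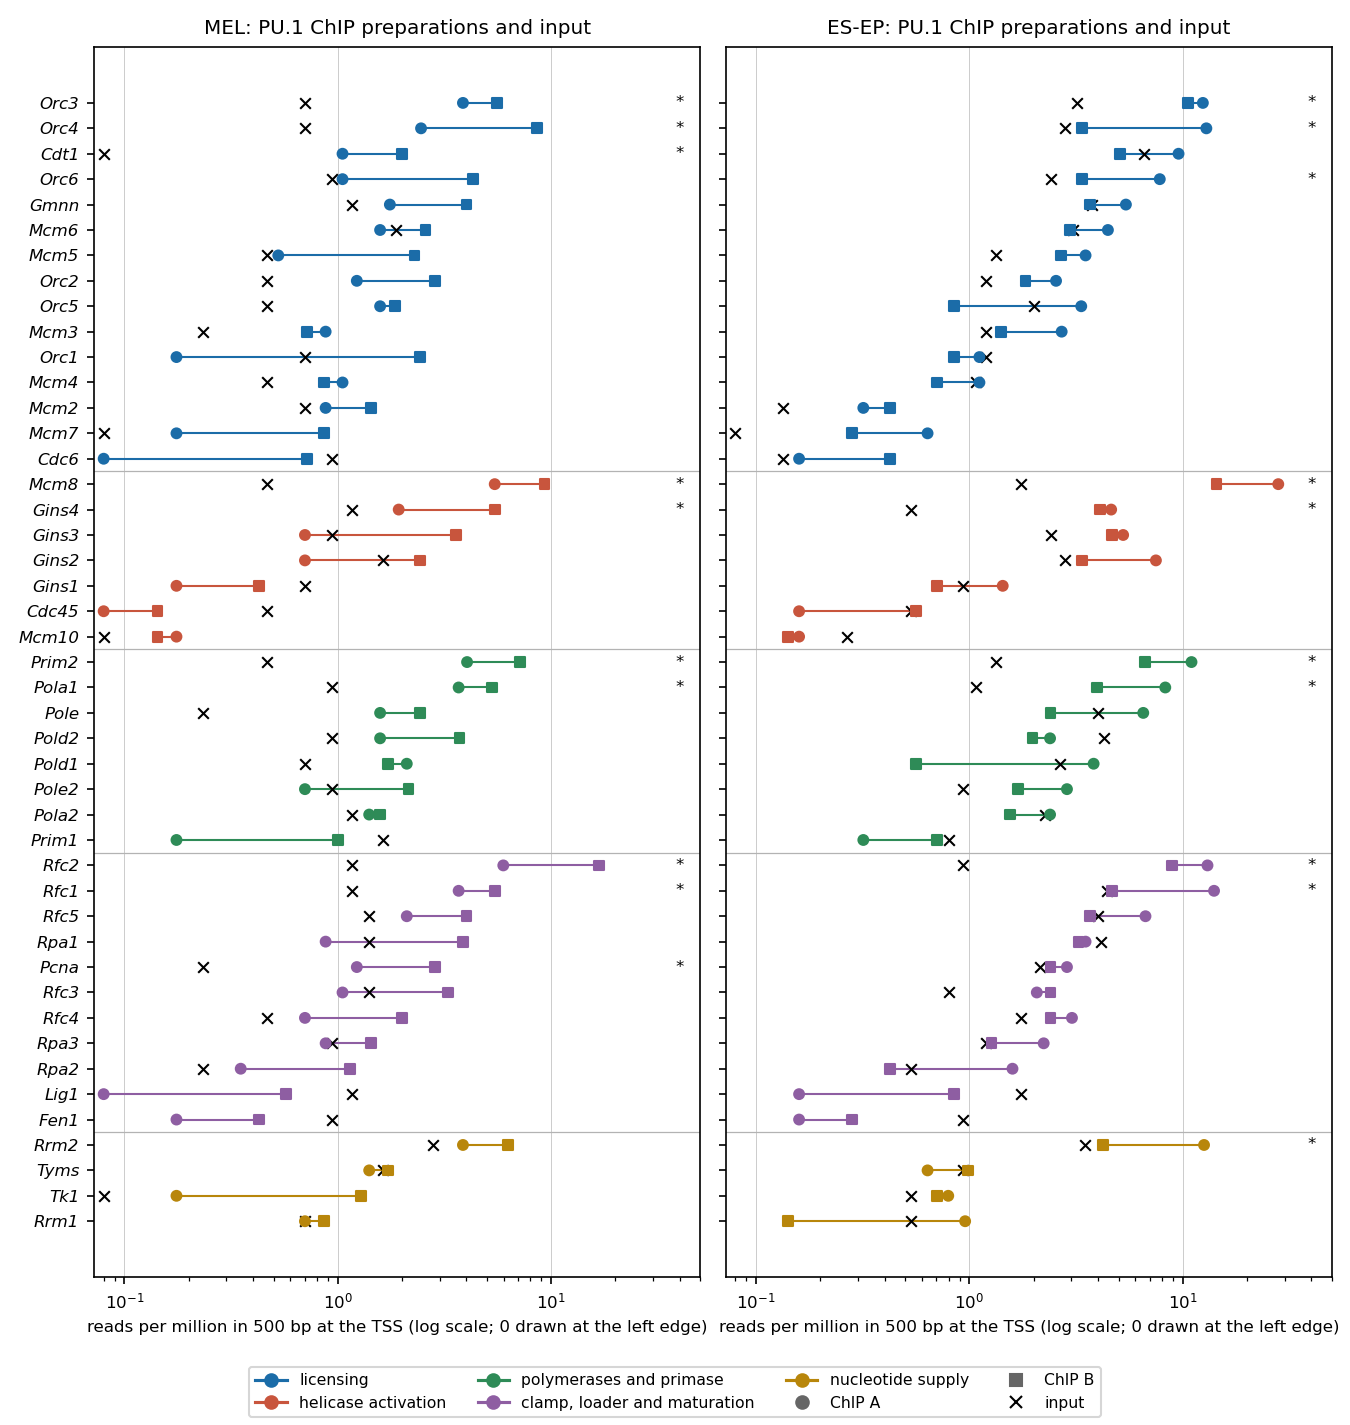
PU.1 ChIP and input levels (RPM) in 500 bp at the TSS of the 45 replication genes in MEL cells (left) and ES-EP (right), on a log axis with values of 0 at the left edge. Circles and squares are preparations A and B joined by a line, crosses are input, colours are functional groups, genes are ordered by mean ChIP level within a group, and an asterisk marks a promoter called above input. The preparations of *Mcm8*, *Prim2* and *Rfc2* lie far to the right of their input in both cell types, and those of *Lig1* and *Fen1* lie to the left of it.

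The sequences below show the DNA at the promoter with the highest ChIP level of each functional group, with the words searched in capitals: GGAAGT (the ETS core followed by GT) or its complement ACTTCC, the ETS words CCGGAAGT and GAGGAAGT, and the E2F words TTTGGCGC, TTTCCCGC, TTTCGCGC and TTTGCCGC or their complements. Each is given from 5′ to 3′ on the strand of the gene.
Orc3, NCBIM37 chr4:34562191-34562220, minus strand, spanning the TSS: cccgcctccgcgCCGGAAGTcgcctctgct
Mcm8, chr2:132641792-132641876, plus strand, directly upstream of the TSS: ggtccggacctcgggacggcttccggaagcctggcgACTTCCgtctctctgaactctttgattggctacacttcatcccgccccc
Prim2, chr1:33726632-33726687, minus strand, directly upstream of the TSS: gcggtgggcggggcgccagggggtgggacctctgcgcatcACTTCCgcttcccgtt
Rfc2, chr5:135058546-135058575, plus strand, spanning the TSS: cctctataacgcACTTCCgctttcctctcg
Rrm2, chr12:25392956-25393105, plus strand, directly upstream of the TSS: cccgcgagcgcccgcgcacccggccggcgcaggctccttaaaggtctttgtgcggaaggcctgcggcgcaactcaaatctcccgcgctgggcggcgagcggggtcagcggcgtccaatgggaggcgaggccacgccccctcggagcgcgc
The word GGAAGT lies within these stretches at *Orc3*, *Mcm8*, *Prim2* and *Rfc2*, and none of the words above is in the *Rrm2* stretch. The stretches range from 30 to 150 bp of the 500 bp, so a word found in them shows its place and is no test. *Orc3* and *Mcm8* also have an E2F word outside their stretches, 39 bp upstream and 39 bp downstream of the TSS.

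Further stretches were chosen after their values were seen, for 3 other promoters called in both cell types and for 2 promoters with an E2F word and no call.
Orc4, chr2:48804837-48804936, minus strand: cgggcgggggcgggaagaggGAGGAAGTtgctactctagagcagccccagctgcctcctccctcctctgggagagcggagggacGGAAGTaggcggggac
Pola1, chrX:90877535-90877644, minus strand: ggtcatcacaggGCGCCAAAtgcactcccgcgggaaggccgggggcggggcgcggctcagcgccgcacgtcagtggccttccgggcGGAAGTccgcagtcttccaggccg
Gins4, chr8:24348231-24348290, minus strand: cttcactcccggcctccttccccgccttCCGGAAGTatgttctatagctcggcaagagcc
Mcm5, chr8:77633237-77633296, plus strand: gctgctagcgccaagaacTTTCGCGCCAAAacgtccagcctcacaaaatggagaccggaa
Cdc6, chr11:98769305-98769354, plus strand: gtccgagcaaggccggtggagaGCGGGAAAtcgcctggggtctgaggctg
*Orc4* is the one replication promoter with the full word GAGGAAGT, the form closest to the purine-rich PU.1 consensus. *Pola1* holds an E2F word and the word GGAAGT in 1 stretch, while the E2F words of *Mcm5* and *Cdc6* stand without the word GGAAGT in the 500 bp. Other promoters called in neither cell type hold both an E2F word and GGAAGT in the 500 bp, such as *Mcm3*, *Rfc3* and *Gins3*.

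Among the licensing genes the highest PU.1 levels were at 2 genes of the origin recognition complex, which marks origins for loading of the helicase. *Orc3* had 22 reads in MEL preparation A, 39 in B and 3 in input, and 78, 75 and 24 in ES-EP. Both preparations lay above input in each cell type, with a ratio of 6.86 (2.24 to 34.2, exact binomial test, adjusted p = 0.000838) in MEL cells and of 3.57 (2.31 to 5.74, adjusted p = 1.40e-09) in ES-EP. *Orc4* had 14 reads in MEL A, 60 in MEL B and 3 in input, and 81, 24 and 21 in ES-EP A, B and input. Its ratio was 8.32 (2.74 to 41.3, exact binomial test, adjusted p = 4.11e-05) in MEL cells and 2.80 (1.74 to 4.71, adjusted p = 5.72e-05) in ES-EP, where preparation B, at 3.38 RPM, was close to input at 2.80 RPM. Without preparation A the *Orc4* log2 ratio in ES-EP fell from 1.46 to 0.27 and the call was lost. Both genes share their promoter with a gene on the opposite strand: the TSS of *Rars2* lies 13 bp upstream of that of *Orc3* and the TSS of *Mbd5* lies 234 bp upstream of that of *Orc4*. The reads cannot be given to 1 gene of such a pair.

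*Cdt1*, which loads the MCM helicase together with *Cdc6*, had the third-highest ChIP level of the licensing genes. It had 6 and 14 reads in MEL A and B with none in input, and 60 and 36 reads in ES-EP with 49 in input. The MEL call (exact binomial test, adjusted p = 0.0404) therefore rests on 20 reads against an input of 0. With input set to a floor of 3 reads the ratio was 2.25, and the interval from the counted reads has a lower limit of 1.67. In ES-EP the ratio was 1.10 (0.769 to 1.58), and preparation B lay below input. *Orc6* had 6 and 30 reads in MEL cells with 4 in input, and 49 and 24 in ES-EP with 18 in input. *Orc6* was called in ES-EP at a ratio of 2.27 (1.34 to 4.04, exact binomial test, adjusted p = 0.0132), while the MEL ratio of 3.04 had an interval of 1.09 to 11.7 and an adjusted p of 0.159 in the exact binomial test. The ES-EP call of *Orc6* was lost without preparation A, where the log2 ratio fell from 1.15 to 0.48, without the input library numbered 2 (0.50), with median-ratio scaling and with limma. In MEL cells *Orc6* was called in a 1000 bp window (log2 ratio 2.19), a 4000 bp window (0.96) and with input of 5 kb (2.73). Its MEL log2 ratio of 1.45 became 2.05 without preparation A and 0.12 without B. The *Orc6* promoter is shared with *Vps35*, whose TSS lies 119 bp upstream. *Gmnn*, which encodes the Cdt1 inhibitor geminin, had ratios of 2.56 (1.01 to 8.34) and 1.20 (0.754 to 1.95) and was not called.

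None of the 6 promoters of the replicative helicase Mcm2 to Mcm7 was called in either cell type by the binomial test against input of the same 500 bp or by limma. Against input of 5 kb the binomial test called 4 of the 6 in MEL cells (44% of all TSSs) and 3 of the 6 in ES-EP (45.9%). Against input of the same 500 bp, the binomial test at an unadjusted p below 0.05 put 0 above input in MEL cells and 1 (*Mcm5*) in ES-EP, beside 19.4 and 14.5% of all TSSs, and over 6 genes these counts do not set the complex apart. *Mcm6* was the highest, with 9 and 18 reads in MEL cells (input 8) and 28 and 21 in ES-EP (input 23). *Mcm5* had 3 and 16 reads in MEL cells (input 2) and 22 and 19 in ES-EP (input 10), a ratio of 2.29 (1.13 to 5.14, exact binomial test, adjusted p = 0.152). *Mcm6* thus lay near its own input, and the *Mcm5* ratio did not pass after adjustment.

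*Mcm3* had 5 and 5 reads in MEL cells (input 1) and 17 and 10 in ES-EP (input 9). *Mcm4*, whose promoter region is shared with *Prkdc*, had 6 and 6 (input 2) and 7 and 5 (input 8). *Mcm2* had 5 and 10 (input 3) and 2 and 3 (input 1). *Mcm7*, with input at 0 throughout, had 1 and 6 reads (MEL A and B) and 4 and 2 (ES-EP A and B). *Cdc6*, the lowest of the licensing genes, had 0 and 5 reads (input 4) and 1 and 3 (input 1). At these read numbers a ratio is known only within wide limits, such as 0.313 to 132 for *Mcm2* in ES-EP, and a difference from input was not detectable. The remaining licensing genes *Orc1*, *Orc2* and *Orc5* had 18 to 27 reads in MEL cells and 13 to 29 in ES-EP and were not called.

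The helicase activation group held *Mcm8*, the replication gene with the highest mean level over the 4 preparations and in ES-EP, while in MEL cells *Rfc2* was higher. *Mcm8* encodes an MCM-family helicase that is also known for work with Mcm9 in recombination repair. It had 31 reads in MEL A, 65 in MEL B and 2 in input, and 176, 102 and 13 in ES-EP. The separate libraries of MEL cells held 9, 22, 24 and 41 reads and those of ES-EP 51, 125, 27 and 75. Every preparation was above its input, at a ratio of 16.2 (4.36 to 136, exact binomial test, adjusted p = 4.23e-08) in MEL cells and of 12.0 (6.88 to 22.8, adjusted p = 1.61e-35) in ES-EP, which placed the promoter at the 98.2 and 99.4 percentiles of all TSSs by ChIP reads. The TSS of *Trmt6*, on the opposite strand, lies 87 bp upstream. *Mcm8* was placed in the helicase activation group by the grouping used here, and apart from it only *Gins4* of this group was called.

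The 4 GINS subunits, which join Cdc45 and the MCM helicase in the active replicative helicase, were not all called. *Gins4* had 11 and 38 reads in MEL cells (input 5) and 29 and 29 in ES-EP (input 4), with ratios of 3.31 (1.32 to 10.6, exact binomial test, adjusted p = 0.0423) and 8.12 (3.0 to 30.8, adjusted p = 2.51e-06). *Gins3* had 4 and 25 reads (input 4) and 33 and 33 (input 18), a ratio of 2.05 (1.20 to 3.67, exact binomial test, adjusted p = 0.0611) in ES-EP. *Gins2* had 4 and 17 reads (input 7) and 47 and 24 (input 21), a ratio of 1.89 (1.15 to 3.24, exact binomial test, adjusted p = 0.0852) in ES-EP. *Gins4* was the one subunit called, with 58 ChIP reads in ES-EP beside 66 for *Gins3* and 71 for *Gins2*, whose inputs were higher, and its interval overlaps theirs. In MEL cells its log2 ratio of 1.60 fell to 0.83 in a 1000 bp and to 0.46 in a 4000 bp window, and the call was lost in both. In MEL preparation A *Gins2* and *Gins3* lay below input. *Gins1* had 1 and 3 reads in MEL cells (input 3) and 9 and 5 in ES-EP (input 7). *Cdc45* had 0 and 1 reads (input 2) and 1 and 4 (input 4), and *Mcm10*, a factor that helps to start the helicase, had 1 read in each of the 4 preparations. *Gins1*, *Cdc45* and *Mcm10* thus had between 1 and 14 reads in a cell type and were not called.

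Of the polymerase genes, 2 subunits of the polymerase alpha and primase complex had the highest levels and were called in both cell types. *Prim2*, the large primase subunit, had 23 and 50 reads in MEL cells (input 2) and 69 and 47 in ES-EP (input 10). Its ratios were 12.3 (3.29 to 104, exact binomial test, adjusted p = 7.90e-06) and 6.49 (3.41 to 13.9, adjusted p = 2.40e-11), and the TSS of *1700001G17Rik* lies 57 bp upstream on the opposite strand. *Pola1*, the catalytic subunit of polymerase alpha, had 21 and 37 reads (input 4) and 52 and 28 (input 8), with ratios of 4.89 (1.81 to 18.6, exact binomial test, adjusted p = 0.00387) and 5.60 (2.71 to 13.4, adjusted p = 3.35e-07). It has no other protein-coding TSS within 1000 bp. In ES-EP its log2 ratio fell from 2.41 to 1.41 without the input library numbered 2, and the call was lost. All preparations of both genes lay above input.

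The partners of these subunits were not called. *Pola2* had 8 and 11 reads in MEL cells (input 5) and 15 and 11 in ES-EP (input 17), and *Prim1*, the small catalytic primase subunit, had 1 and 7 (input 7) and 2 and 5 (input 6). *Pole*, the catalytic subunit of the leading-strand polymerase epsilon, had 9 and 17 reads in MEL cells with 1 in input, a ratio of 8.77 with an interval of 1.44 to 360 (exact binomial test, adjusted p = 0.0576), and 41 and 17 in ES-EP with 30 in input, a ratio of 1.08 (0.685 to 1.74). The 4 polymerase delta and epsilon genes reached 19 to 35 reads in MEL cells and 28 to 58 in ES-EP without a call. *Pold2* in ES-EP lay below input in both preparations, at a ratio of 0.507 (0.296 to 0.866, exact binomial test, adjusted p = 0.0983).

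Among the clamp and maturation genes the reads were highest at the clamp loader, the 5-subunit replication factor C that places the PCNA ring on DNA. *Rfc2* had 34 reads in MEL A, 117 in MEL B and 5 in input, and 82, 63 and 7 in ES-EP. The separate libraries of MEL cells held 14, 20, 32 and 85 reads and those of ES-EP 24, 58, 19 and 44. The ratios were 10.2 (4.27 to 31.8, exact binomial test, adjusted p = 2.34e-11) and 11.6 (5.49 to 29.3, adjusted p = 3.65e-18), and *Rfc2* in MEL cells stood at the 99.4 percentile of all TSSs. Its MEL log2 ratio of 3.22 became 3.71 without preparation A and 2.24 without B. *Rfc1*, the large subunit, had 21 and 38 reads (input 5) and 88 and 33 (input 33), with ratios of 3.98 (1.61 to 12.7, exact binomial test, adjusted p = 0.0111) and 2.05 (1.39 to 3.11, adjusted p = 0.00229). At 4.65 RPM ES-EP preparation B was nearly level with the input at 4.41 RPM, and without preparation A the log2 ratio fell from 1.02 to 0.08 and the call was lost. *Rfc5* had 12 and 28 reads in MEL cells (input 6) and 42 and 26 in ES-EP (input 30), with ratios of 2.25 (0.947 to 6.49) and 1.27 (0.814 to 2.02). *Rfc3* and *Rfc4* had 18 to 29 reads in MEL cells and 30 to 36 in ES-EP. *Rfc5*, *Rfc3* and *Rfc4* were not called.

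*Pcna*, the sliding clamp, had 7 and 20 reads in MEL cells with 1 in input, a ratio of 9.11 with an interval of 1.50 to 373 (exact binomial test, adjusted p = 0.0411), and 18 and 17 reads in ES-EP with 16 in input, a ratio of 1.22 (0.660 to 2.37). The MEL call thus rests on 1 input read. It was lost with 1 read per position, where the log2 ratio was 2.64 beside 2.63, and in a 1000 bp window, where it was 1.41. The lowest members of the group were *Lig1*, the ligase that seals Okazaki fragments, with 0 and 4 reads (input 5) and 1 and 6 (input 13), and *Fen1*, the flap nuclease of the same pathway, with 1 and 3 (input 4) and 1 and 2 (input 7). At the TSS used both lay below input in both cell types, without a call. The 3 genes of the single-strand binding protein, *Rpa1*, *Rpa2* and *Rpa3*, had 10 to 32 reads in MEL cells and 13 to 45 in ES-EP and were not called.

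In nucleotide supply *Rrm2*, the S-phase subunit of ribonucleotide reductase, stood apart from the other 3 genes by its level. It had 22 and 44 reads in MEL cells, where the input had 12 and the ratio was 1.86 (0.994 to 3.77, exact binomial test, adjusted p = 0.240). In ES-EP it had 79 and 30 reads with 26 in input and was called at a ratio of 2.35 (1.52 to 3.75, exact binomial test, adjusted p = 0.000576). The call was lost without preparation A, where the log2 ratio fell from 1.21 to 0.28, without the input library numbered 1 (0.88), with median-ratio scaling and with limma, and without the other input library the log2 ratio rose to 2.15. *Tyms*, thymidylate synthase, had 8 and 12 reads (input 7) and 4 and 7 (input 7). *Tk1*, thymidine kinase, had 1 and 9 (input 0) and 5 and 5 (input 4), and *Rrm1*, the large reductase subunit, 4 and 6 (input 3) and 6 and 1 (input 4). *Tyms*, *Tk1* and *Rrm1* were not called, and the partner subunits *Rrm1* and *Rrm2* differed in level in every preparation.

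Of the 45 genes, 9 have a more upstream TSS in the annotation. At *Orc4* the TSS used above carried the signal, and the TSS 1001 bp upstream had 10 reads in the MEL preparations together and 1 in each ES-EP preparation, with no call. At *Rfc1* the TSS 106 bp upstream had more reads than the one used. They were 23 and 55 for MEL A and B, and 99 and 43 for ES-EP A and B, and this TSS was called in both cell types. At *Cdc6* the upstream TSS, at a distance of 350 bp, had 17 and 12 reads in ES-EP with 5 in input (ratio 3.25, 1.24 to 10.7; exact binomial test, adjusted p = 0.102) and 2 and 4 in MEL cells. At *Mcm10* the TSS 447 bp upstream had 3 and 9 reads in MEL cells (input 2) and 6 and 8 in ES-EP (input 6). At *Fen1* the TSS 3091 bp upstream had 4 and 9 reads (input 5) and 14 and 6 (input 11). At *Lig1* the TSS 1543 bp upstream had 2 and 4 reads (input 0) and 2 and 2 (input 4). None of these was called. *Orc4* was the one gene of the 45 whose call changed when the most upstream TSS was used.

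The input itself was uneven. At replication TSSs the median MEL input was 3 reads, against a genome mean of 0.806 per 500 bp, and the median ES-EP input was 10 reads, against 1.41. Across the 45 genes the ChIP level correlated with input at r = 0.345 (MEL) and r = 0.687 (ES-EP) on log2 RPM, a description over genes counted in the same libraries. When input was averaged over 5 kb around the TSS instead, 33 of the 45 promoters exceeded it in each cell type, beside 44% of all TSSs in MEL cells and 45.9% in ES-EP. Among the other CpG-rich promoters these shares were 79.5 and 82.7%, beside 82.1% of the CpG-rich replication promoters in each cell type. The count of promoters above input thus differed more than 3-fold between the 2 ways of taking input, and the values elsewhere in the text use the input of the same 500 bp.

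Averaged over the 8 genes called in both cell types, ChIP formed a peak near the TSS. It was highest in the 50 bp bin centred 25 bp upstream of the TSS in 3 preparations and 75 bp upstream in ES-EP B, at 0.812 and 1.68 RPM per 50 bp in MEL A and B and at 2.86 and 1.51 in ES-EP A and B. Input of the same genes peaked at 0.205 and 0.351. The 33 genes called in neither cell type had a low signal, with highest bins of 0.144 and 0.256 RPM in MEL cells (input 0.135) and 0.366 and 0.201 in ES-EP (input 0.239). These groups were set by the same reads, so the profiles describe shape and are no test.

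**Figure D2:**
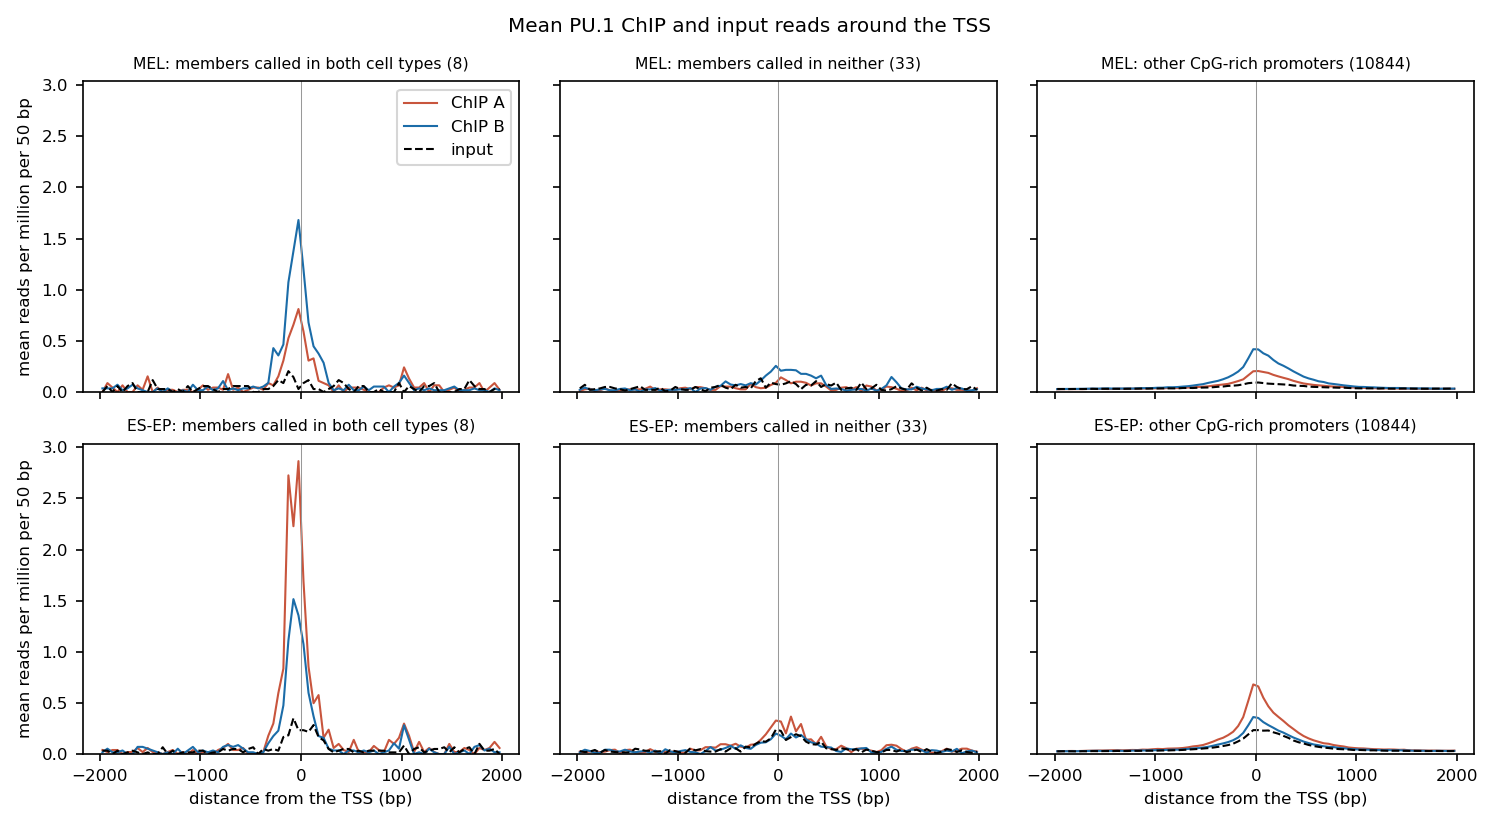
Mean PU.1 ChIP (preparations A and B) and input levels (RPM) in 50 bp bins from 2 kb upstream to 2 kb downstream of the TSS, with MEL cells in the upper and ES-EP in the lower row, for the 8 replication genes called in both cell types, the 33 called in neither and the 10,844 other CpG-rich promoters. ChIP reaches 2.86 in ES-EP A over the 8 called genes, while over the 33 others no preparation exceeds 0.366.

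The position of the highest 100 bp of ChIP reads within the window was the same in both cell types to within 10 bp at *Orc3*, *Orc4*, *Mcm8*, *Prim2*, *Pola1* and *Rfc2*, and these 100 bp held from 44.6% (*Orc4*, MEL cells) to 76.3% (*Mcm8*, ES-EP) of the reads of the 500 bp. At *Gins4* the highest point lay 100 bp downstream of the TSS in MEL cells and 150 bp upstream in ES-EP, and reads rose on both sides of the TSS in each cell type. At *Rfc1* reads lay on both sides of the TSS and ran upstream past the edge of the 500 bp, with 42.4 and 37.2% of them in the highest 100 bp. Some promoters not called in both cell types also agreed to within 10 bp, on fewer reads, while others, such as *Orc1* at 150 bp, did not. At *Pola2* the highest 100 bp held 47.4% (MEL) and 73.1% (ES-EP) of the reads, and at *Rfc4* 66.7 and 63.9%. The word GGAAGT or its complement, added to the search after the values were seen, lies at 7 of the 8 promoters called in both cell types and is missing at *Rfc1*. The distance from the highest point to the nearest of these words was 10 bp at *Orc3*, 3 and 13 bp at *Orc4*, 27 and 17 bp at *Prim2*, 29 and 19 bp at *Pola1*, 9 and 19 bp at *Rfc2*, 54 and 64 bp at *Mcm8*, and 217 and 33 bp at *Gins4* in MEL cells and ES-EP. The nearest word at *Orc4* starts 56 bp upstream of the TSS. Its word GAGGAAGT starts 120 bp upstream, farther from the highest points at 50 and 40 bp upstream. Promoters not called in both cell types had distances of 9 and 9 bp (*Pcna*), 12 and 22 bp (*Rfc3*) and 14 and 14 bp (*Rpa3*), but 148 and 178 bp at *Mcm6*.

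**Figure D3:**
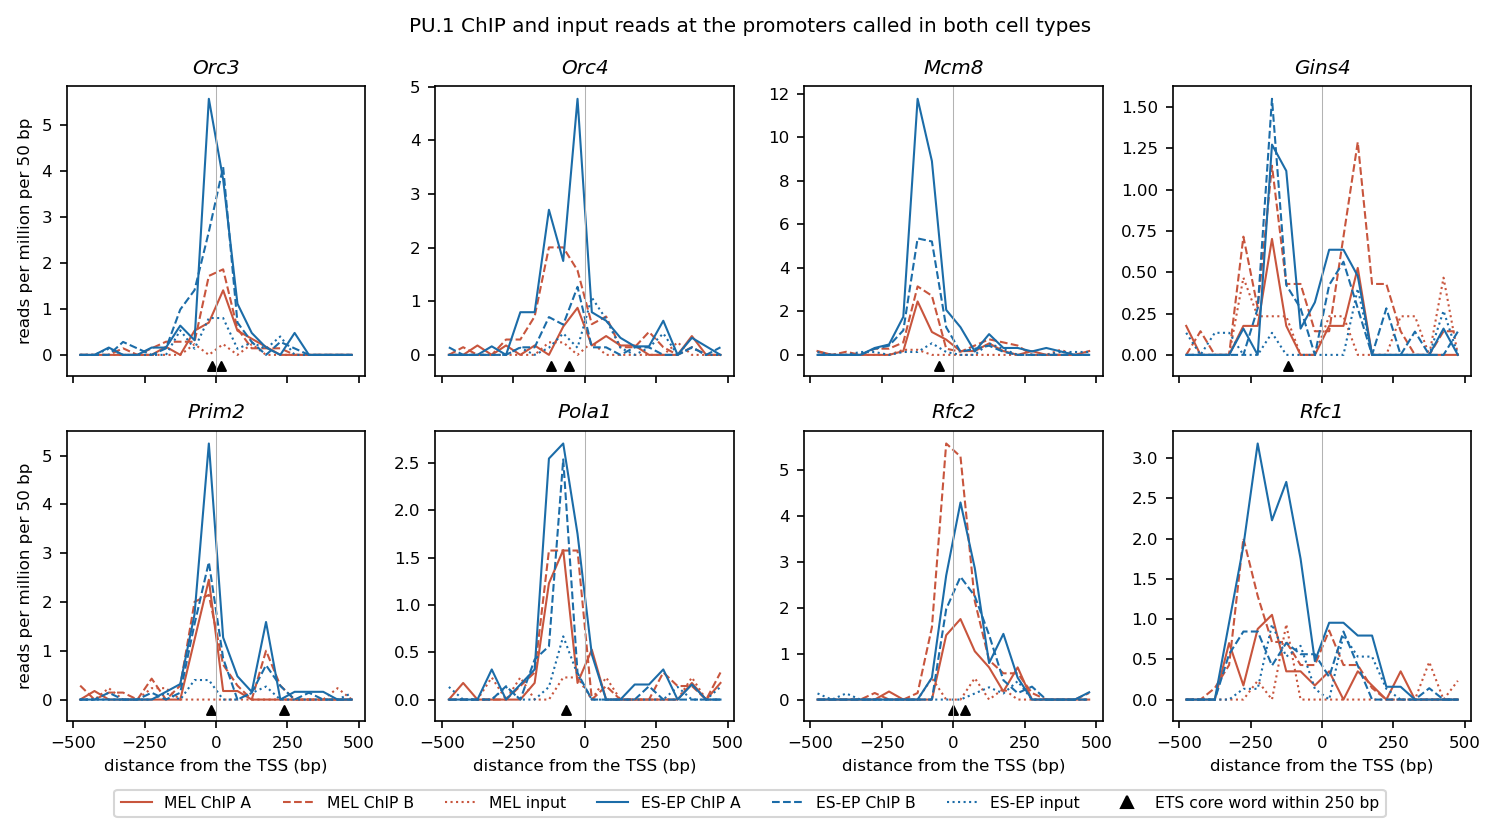
PU.1 ChIP (solid, preparation A; dashed, B) and input (dotted) in RPM per 50 bp within 500 bp of the TSS, for MEL cells (red) and ES-EP (blue), at the 8 replication genes called in both cell types, and each panel has its own scale. Triangles mark the word GGAAGT or its complement (ETS core word) within 250 bp, which lies under or beside the peak at *Orc3*, *Orc4*, *Prim2*, *Pola1* and *Rfc2*, to the side of it at *Mcm8*, under the upstream one at *Gins4*, and is missing at *Rfc1*.

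In the 500 bp of all promoters the word GGAAGT, on either strand, was found at 32.6%, and at 32.5% of CpG-rich promoters. It was found at 20 of the 45 replication promoters (44.4%), with 12 of these among the 33 called in neither cell type. Of the 1,242 CpG-rich promoters called in both cell types 67.2% had it, beside 25.8% of the 8,079 called in neither. It is part of both longer ETS words. The longer word CCGGAAGT was found at 17.8% of replication promoters, 5.7% of all and 10.1% of CpG-rich promoters, and GAGGAAGT at 2.2% of replication promoters (*Orc4*), 4.2% of all and 3.0% of CpG-rich promoters. A match is a description of the sequence and not a binding site.

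The E2F words, searched on both strands, were found at 20 of 45 replication promoters (44.4%), against 4.3% of all and 7.2% of CpG-rich promoters. They were at 10 of 15 licensing promoters, 5 of the 6 Mcm2 to Mcm7 promoters among them, at 4 of 7 helicase activation, 4 of 8 polymerase and 2 of 11 clamp and maturation promoters, and at none of the 4 nucleotide supply promoters. Of the 8 promoters called in both cell types 3 had an E2F word (*Orc3*, *Mcm8* and *Pola1*), and of the 33 called in neither 16 had one. The Sp1-type word GGGCGGGG was at 51.1% of replication promoters and 45.8% of CpG-rich promoters, and the NF-Y-type word CCAAT at 64.4 and 42.8%.

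For the comparison of MEL cells with ES-EP the preparations were the replicates (limma voom over all 22,359 TSSs, n = 2 against 2). No replication promoter differed at an adjusted p below 0.05, beside 0% of all TSSs. The lowest adjusted p among the 45 was 0.797. At an unadjusted p below 0.05 limma had 2 of the 45, *Cdt1* and *Gins2*, against 5.73% of all TSSs. With limma on log2 CPM 0 of the 45 were called, beside 0% of all TSSs. ChIP levels of the 45 genes followed each other across the cell types (r = 0.890 on log2 RPM, beside 0.846 over the other CpG-rich promoters, as a description over genes of the same libraries). The log2 difference, MEL minus ES-EP, was below 0 at 35 of the 45 genes (77.8%), beside 57.4% of all TSSs and 74.6% of the other CpG-rich ones, and its median was -0.54 against -0.49 at the other CpG-rich promoters and -0.22 at all TSSs. With median-ratio scaling, which moved the median of all TSSs to 0.16, it was below 0 at 25 of the 45.

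**Figure D4:**
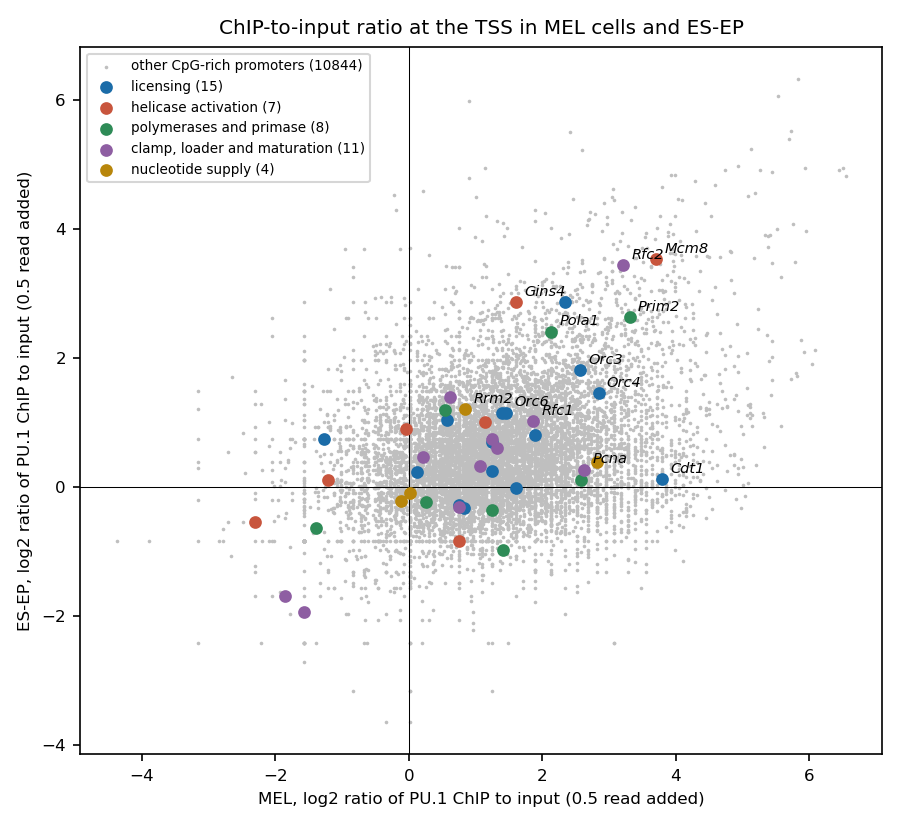
Log2 ratio of PU.1 ChIP to input in MEL cells (x axis) against ES-EP (y axis), with 0.5 read added to ChIP and input, at replication promoters coloured by group (all 45) and at the 10,844 other CpG-rich promoters in grey. Genes called in a cell type are named. *Mcm8* and *Rfc2* have the highest ES-EP ratios of the 45, and the far right position of *Cdt1* rests on a MEL input of 0 reads.

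With depth scaling the 5 genes with the largest differences were *Cdt1*, *Gins2*, *Gins3*, *Gins1* and *Cdc45*. With median-ratio scaling *Mcm2*, at 1.44 ± 0.70 with depth scaling and higher in MEL cells, came first at 1.85, and *Tyms* at 1.27 exceeded in size *Gins1* at -1.19 and *Gins3* at -0.94. *Cdt1* was at 1.05 and 2.00 RPM in MEL A and B and at 9.55 and 5.07 RPM in ES-EP, a log2 difference of -2.19 ± 0.68 (SE, limma, adjusted p = 0.797), and the preparations of the cell types did not overlap. It passed with median-ratio scaling (limma, adjusted p = 0.0103) and in a 4000 bp window (limma, adjusted p = 0.0431). Its input differed in the same direction, at 0 RPM in MEL cells and 6.54 RPM in ES-EP, and after subtraction of input 1.53 RPM remained in MEL cells and 0.767 RPM in ES-EP. The difference of the ChIP-to-input enrichment between the cell types was 3.67 ± 1.29 in favour of MEL cells (limma, adjusted p = 0.415).

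*Gins2* was at 0.702 and 2.43 RPM in the MEL preparations and at 7.48 and 3.38 RPM in those of ES-EP, a log2 difference of -1.86 ± 0.74. *Gins3* was at 0.702 and 3.58 RPM and at 5.25 and 4.65 (-1.56 ± 0.77), and *Gins1* at 0.176 and 0.429 and at 1.43 and 0.705 RPM (-1.53 ± 0.77). The preparations of MEL cells lay below those of ES-EP for these 3 GINS genes, as they did for 11 of the 45 genes (24.4%), 19.2% of all TSSs and 27.4% of the other CpG-rich ones. Input was lower in MEL cells as well, at 0.935 against 2.40 RPM for *Gins3*, 1.64 against 2.80 RPM for *Gins2* and 0.701 against 0.935 RPM for *Gins1*, and its part in the differences was not tested. The log2 difference of enrichment was -0.32 ± 1.17 for *Gins3*, -1.28 ± 1.12 for *Gins2* and -1.16 ± 1.33 for *Gins1*, and with median-ratio scaling the ChIP difference of *Gins2* was -1.32. In a 1000 bp window the ChIP difference was -1.37 for *Gins2* and -1.02 for *Gins1*, and in a 4000 bp window -1.004 for *Gins2* and -0.68 for *Gins1*. For *Gins4*, at 1.93 and 5.44 RPM in the MEL preparations and 4.61 and 4.09 RPM in those of ES-EP, the preparations overlapped and the log2 difference of -0.42 became 0.04 with median-ratio scaling. *Cdc45*, with 1 read in MEL cells and 5 in ES-EP, had a log2 difference of -1.53 ± 0.96, which became -0.35 in a 1000 bp and -0.05 in a 4000 bp window.

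Chromosome 8 carries 6 of the 45 genes (*Cdt1*, *Orc6*, *Mcm5*, *Gins2*, *Gins3* and *Gins4*), and its share of input reads was 0.732 times as high in MEL cells as in ES-EP, relative to the median autosome, the lowest of the autosomes. All 6 had a log2 difference below 0, with a median of -1.46 beside -0.77 for the 1,082 TSSs of the chromosome, and the other 39 replication genes had a median of -0.39. All 6 are CpG-rich, while the 1,082 TSSs were not split by CpG class. Over all chromosomes the median was -0.49 at the other CpG-rich TSSs and 0.08 at those outside the class. With the input ratio of the chromosome taken off, the differences were -1.74 for *Cdt1*, -1.40 for *Gins2* and -1.11 for *Gins3*. On the X chromosome, where the input ratio was 1.56, *Pola1* had a log2 difference of -0.38 ± 0.69.

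No replication gene passed the test for a difference of enrichment over input between the cell types either (limma, lowest adjusted p = 0.415), beside 0.00447% of all TSSs. For 1 of the 45, *Cdt1*, limma gave an unadjusted p below 0.05, against 6.91% of all TSSs. With limma on log2 CPM 0 of the 45 were called, beside 0.318% of all TSSs. For *Rfc2* the difference of enrichment was -0.54 ± 1.21 on the log2 scale and for *Mcm8* 0.22 ± 1.28, and these errors do not show that the enrichment was alike.

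The preparations of a cell type differed in the same way across the list. In MEL cells 41 of the 45 genes had more RPM in B than in A, as had 68.0% of all TSSs and 89.1% of the other CpG-rich ones. In ES-EP 37 of 45 had more in A than in B, as had 59.7% of all TSSs and 77.3% of the other CpG-rich ones, although the median level of all TSSs was 0.636 RPM in A and 0.705 RPM in B. The summed level over the 45 genes was 65.8 and 140 RPM in MEL A and B and 217 and 122 RPM in ES-EP A and B, beside inputs of 37.9 and 84.7 RPM. The other CpG-rich promoters had median ratios to input of 1.65 and 3.06 in MEL A and B and of 1.62 and 1.14 in ES-EP A and B. With MEL preparation A left out 16 replication promoters were called, beside 16.3% of all TSSs, and with B left out 3 (*Mcm8*, *Prim2* and *Rfc2*), beside 2.77%. Without B the log2 ratio of *Gins4* fell from 1.60 to 0.65, that of *Orc4* from 2.84 to 1.64 and that of *Pcna* from 2.63 to 1.91. It fell less at *Orc3* (2.57 to 2.27), *Cdt1* (3.79 to 3.29), *Pola1* (2.13 to 1.84) and *Rfc1* (1.87 to 1.55). The *Cdt1* values rest on 0.5 read added to an input of 0. In ES-EP 6 were called without A, beside 3.95% of all TSSs, and 11 without B, beside 12.8%.

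When the spread between samples was used in place of the summed reads (limma voom with all 4 groups), 3 of the 45 promoters exceeded input in MEL cells, *Mcm8*, *Rfc2* and *Cdt1*, beside 2.85% of all TSSs, and 4 in ES-EP, *Mcm8*, *Rfc2*, *Prim2* and *Gins4*, beside 2.25%. Of the 10,844 other CpG-rich TSSs 574 (MEL) and 408 (ES-EP) exceeded input in this fit. The MEL input is 1 library with no spread of its own, and this fit assumes that it varies like the other groups. The 2 ES-EP input libraries entered as separate samples. The labels do not say whether they come from separate preparations, so their spread may be that of sequencing only. The log2 enrichment in this fit was 3.62 ± 1.05 for *Mcm8* in MEL cells (limma, adjusted p = 0.0296) and 3.40 ± 0.73 in ES-EP (limma, adjusted p = 0.000591), and for *Rfc2* it was 2.97 ± 0.91 (limma, adjusted p = 0.0425) and 3.51 ± 0.79 (limma, adjusted p = 0.0014). *Mcm8* and *Rfc2* were called in both cell types under every alternative tried, and the other called genes were lost in at least 1 of them in at least 1 cell type.

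A second list of 36 replication genes outside the 45 (further polymerase subunits, checkpoint, chromatin assembly and nucleotide genes) had 10 promoters called in MEL cells and 9 in ES-EP, 6 of them in both, beside 10.5, 9.1 and 5.97% of all TSSs. Of these 36 promoters 34 are CpG-rich, the class in which 20.3% (MEL) and 16.8% (ES-EP) of the other promoters were called. *Pold4* is not CpG-rich, and of the other TSSs outside that class 1.26% (MEL) and 1.76% (ES-EP) were called. The limma fit called 0 (MEL) and 3 (ES-EP) of the 36, beside 2.85 and 2.25% of all TSSs. The exact binomial test put 12 (MEL) and 14 (ES-EP) of them above input at an unadjusted p below 0.05, beside 19.4 and 14.5% of all TSSs. Of the 10,844 other CpG-rich TSSs, limma called 574 (MEL) and 408 (ES-EP). At an unadjusted p below 0.05 the binomial test put 4,015 and 2,822 of these above input. The 3 highest were *Pold4*, the small subunit of polymerase delta, *Topbp1*, which acts in origin firing and checkpoint signalling, and *Ticrr*, a firing factor. *Pold4* had 43 and 76 reads in MEL cells (input 5) and 86 and 59 in ES-EP (input 2), with a ratio of 8.03 (3.35 to 25.2, exact binomial test, adjusted p = 4.23e-08) in MEL cells and of 40.6 with an interval of 11.0 to 338 in ES-EP. *Topbp1* had 20 and 48 reads (input 2) and 82 and 57 (input 28). *Ticrr* had 22 and 40 reads (input 3) and 77 and 52 (input 6). All 3 were called in both cell types, and *Topbp1* has the TSS of *1300017J02Rik* 133 bp upstream on the opposite strand. The word GAGGAAGT was found at *Pold4*, *Topbp1* and *Dscc1* of this list, each called in both cell types. Of the 31 genes of the first list without another protein-coding TSS within 1000 bp, 19.4% (MEL) and 16.1% (ES-EP) were called. Of the 14 with one, 4 and 5 were called (28.6 and 35.7%). The shares were 10.5 and 9.1% of all TSSs and 20.3 and 16.8% of the other CpG-rich ones. Of the 31 genes 28 are CpG-rich, and of the 14 genes 11.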

How the data were processed

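Each line of a deposited file is the position of a single aligned read. Per the study's methods the authors aligned Illumina GAII reads to mm9 with the ELAND pipeline (version not given in the sources used here) and kept unique alignments with up to 2 mismatches. The deposited positions carry no measured value, so reads were counted here. Starts were checked as counted from 1 against the NCBIM37 genome (99.75 to 100% of the reads sampled per library matched with at most 2 mismatches). Reads on unplaced sequence were left out. Read starts were moved by 70 bp (MEL) or 65 bp (ES-EP) toward the fragment middle and counted in 500 bp around the TSS of the protein-coding transcript with the longest coding sequence (GENCODE on NCBIM37). Libraries of a preparation were summed; repeated positions were kept. The two-sided exact binomial test of ChIP reads against input used scipy 1.17.1 and the comparison of MEL cells with ES-EP limma 3.58.1 (voom, R 4.3.3), each with Benjamini-Hochberg adjustment over 22,359 TSSs and without a filter. Log2 ratios of ChIP to input, their medians and the correlations used 0.5 added reads, also where input was 0. The floor of 3 reads was used only for a ratio given without added reads at an input of 0. A promoter was CpG-rich with an observed-to-expected CpG ratio of at least 0.6 and at least 50% GC. Scripts were tested on simulated data.

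The replication genes, their groups, the second list and the tests were chosen with earlier results of these data known. Named with values were the 3 highest and 2 lowest genes of each group by mean ChIP RPM, the 5 largest differences between cell types, Mcm2 to Mcm7, the GINS genes and the 3 highest genes of the second list. Other genes given with values, such as *Orc6*, *Gmnn*, *Pold2* and *Pcna*, and the word GGAAGT were chosen after values were seen. The letters of the preparations did not pair the cell types (r = -0.0401 between their A-minus-B differences over 14,051 TSSs with at least 10 reads). The methods state duplicate independent chromatin preparations, and the letter in a library's title was taken as its preparation and the number as the library. Alternatives were 1 read per position, windows of 1000 and 4000 bp, no shift, the most upstream TSS, 5 kb input, another scaling, at least 10 reads, limma against input, each preparation or ES-EP input left out, and the letter as a block.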

Additional observations from a re-analysis of the deposited data

Results flagged for a closer look

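In 76 comparisons among the 4 libraries of a cell type (genes named with values, called genes and group sums, in RPM), 1 library stood apart from the other 3 by Dixon's criterion, for *Cdc45* in MEL library B2, at 0.235 RPM with the other 3 at 0. This is 1 read, and chance sets apart about 1 group in 20. No replication gene passed the test for a difference between the cell types in its enrichment over input (limma, lowest adjusted p = 0.415).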

How the results depend on the processing

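For the count of replication promoters above input, 10 of 45 in MEL cells (10.5% of all TSSs) became 33 with input of 5 kb (44%), 2 with median-ratio scaling (1.44%) and 3 with limma voom (2.85%), and ranged from 3 to 16 with a preparation left out. In ES-EP 10 (9.1%) became 33 (45.9%), 6 (5.22%) and 4 (2.25%) under the same settings, and 6 to 11 with a preparation or an input library left out. Other settings gave 9 to 11 in MEL cells and 9 to 15 in ES-EP, while the share of all TSSs called went from 10.2 to 16.0% and from 8.65 to 13.2%, and to 27.7 and 21.1% of those with at least 10 reads. Median-ratio scaling moved the median log2 ratio of all TSSs from 0.58 to -0.62 in MEL cells and from 0.26 to -0.18 in ES-EP, and under it the log2 ratio turned to -0.35 for *Rrm2* in MEL cells and to -0.32 for *Cdt1* and -0.17 for *Pcna* in ES-EP. With a preparation left out it ranged from -0.36 to 0.54 for *Cdt1* in ES-EP, and at the most upstream TSS it was -0.10 for *Orc4* in ES-EP. The percentage of other TSSs above input rose from 10.5 to 20.3 in MEL cells and from 9.08 to 16.8 in ES-EP when only CpG-rich TSSs were taken.

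For MEL cells against ES-EP, the number of replication promoters that differed was 0, became 1 (*Cdt1*) with median-ratio scaling and 1 in a 4000 bp window, and was 0 under the other settings, each preparation left out included. With input subtracted, a value without a test, the log2 difference of *Cdt1* turned to 0.99. The fit with the letter as a replicate block called 0 of the 45 and 3 TSSs in all. The letters share only a name. Over all TSSs median-ratio scaling called 239 and the 4000 bp window 131, against 0. The causes of these shifts were not tested. Low input counts limit the MEL ratios at 23 of the 45 genes, which had 0 to 3 input reads there.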
